A study of Homo sapiens with 4 samples.

Results

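Acetylation of lysine 14 on histone H3 (H3K14ac) was examined at 9 genes that act as receptors or drivers in gastric cancer: EGFR, ERBB2, ERBB3, FGFR2, VEGFA, MYC, CCND1, CCNE1 and CD44. They were chosen by name, and they are 9 of the 20037 protein-coding genes that carry a position in the RefSeq table. Every peak that touched a gene's span extended by 10 kb on both sides was assigned to it, and all 9 genes were found. The cells were MKN45, an established human gastric cancer line. One condition carried a hairpin labelled shNT, the control, and the other carried a hairpin against NIT2 (shNIT2), the omega-amidase of glutamine metabolism. Each condition gave 1 H3K14ac library and 1 input library of sonicated chromatin, and values came from the 2 deposited H3K14ac peak lists. The level of NIT2 in these cells, the hairpin sequences and whether the cells were a clone or a pool are not given in the sources used here. The title of the study places NIT2 upstream of oxidative phosphorylation and fluorouracil resistance, and the comparison here asks where the driver genes carried the mark in each list. With 1 library per condition, no difference between the lists had a replicate check and no test across samples was possible.

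H3K14ac is laid down by acetyltransferases such as those of the HBO1, MOZ and SAGA complexes, and it is found mainly around the starts of active genes and at active enhancers. EGFR, ERBB2 and ERBB3 are receptor tyrosine kinases of one family, which pair with each other after a ligand binds and pass the signal to the RAS and PI3K pathways. FGFR2 does the same for fibroblast growth factors. VEGFA is a secreted growth factor for blood vessels, MYC is a transcription factor that many growth signals reach, CCND1 and CCNE1 are the cyclins D1 and E1 that drive entry into S phase, and CD44 is the cell surface receptor for hyaluronan. Several of these genes are known targets of amplification in gastric tumours.

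The knockdown library was the deeper one. From the authors' fold and −log10 p, the number of fragments stacked at each summit (the pileup) and the local background were solved. The median pileup over the whole list was 6 fragments in the control (39876 peaks) and 22 in the knockdown (28187 peaks), and the lowest backgrounds of the lists stood in a ratio of 8.93. The same fold or q-value is therefore not equally strict in both lists, and a peak listed in the knockdown alone can be one that the control was too shallow to list. As a check of the cell type, all 12 epithelial marker genes had a knockdown peak in span or flanks and 10 had a control peak. Over all protein-coding genes the shares were 54.9% and 38.6%. Among the 16 markers of other cell types, knockdown peaks were found for 1 of 5 fibroblast, 3 of 4 immune, 1 of 2 endothelial, 2 of 2 neuronal and 0 of 3 liver and muscle genes. Control peaks were found for 1, 2, 1, 2 and 0 of them in the same order. For the immune marker CD68 the strongest peak of each list lay outside the gene, in EIF4A1. Counting only peaks within 1 kb of the gene start, for genes whose strand is in the tables, the knockdown list had 5 of 5 epithelial and 0 of 7 other markers. The control list had 2 of 5 and 0 of 7. Over all genes of known strand the shares were 36.7% and 5.5%.

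The sequences below show what kind of DNA lies at the starts of EGFR, ERBB2, FGFR2, CCNE1 and CD44, since these genes differed from each other in where their peaks lay around the start. RefSeq windows (GRCh38.p14) of 250 bases before to 50 bases after a start matched 5 of the 9 genes, with 10 windows in all, and 7 are printed. Each runs 5′ to 3′ along the gene's strand, and capitals mark CG dinucleotides.
EGFR first start (chr7:55018767-55019066, plus strand): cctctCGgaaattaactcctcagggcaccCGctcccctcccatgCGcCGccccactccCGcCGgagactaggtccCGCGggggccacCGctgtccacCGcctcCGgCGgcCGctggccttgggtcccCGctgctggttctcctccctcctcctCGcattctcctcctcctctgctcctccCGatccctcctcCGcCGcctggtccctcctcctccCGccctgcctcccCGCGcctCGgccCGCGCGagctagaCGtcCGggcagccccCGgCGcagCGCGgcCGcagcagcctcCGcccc
EGFR second start (chr7:55109589-55109888, plus strand): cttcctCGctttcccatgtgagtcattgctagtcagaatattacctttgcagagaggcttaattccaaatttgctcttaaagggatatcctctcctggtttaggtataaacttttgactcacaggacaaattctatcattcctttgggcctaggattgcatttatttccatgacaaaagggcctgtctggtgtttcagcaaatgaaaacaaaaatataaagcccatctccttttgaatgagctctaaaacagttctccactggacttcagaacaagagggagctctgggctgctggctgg
CD44 (chr11:35138921-35139220, plus strand): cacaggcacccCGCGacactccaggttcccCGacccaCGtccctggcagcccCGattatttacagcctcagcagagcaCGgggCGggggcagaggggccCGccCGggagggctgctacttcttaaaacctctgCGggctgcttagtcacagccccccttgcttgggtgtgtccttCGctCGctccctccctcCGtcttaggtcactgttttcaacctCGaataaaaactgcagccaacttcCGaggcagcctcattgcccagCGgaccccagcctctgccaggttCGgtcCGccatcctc
ERBB2 (chr17:39687844-39688143, plus strand): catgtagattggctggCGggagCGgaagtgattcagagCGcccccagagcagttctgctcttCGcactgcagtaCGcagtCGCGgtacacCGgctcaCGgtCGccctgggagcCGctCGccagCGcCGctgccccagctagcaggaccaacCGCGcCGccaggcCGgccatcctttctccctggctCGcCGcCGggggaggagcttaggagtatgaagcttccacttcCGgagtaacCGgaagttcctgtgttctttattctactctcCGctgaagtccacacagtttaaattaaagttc
CCNE1 (chr19:29811741-29812040, plus strand): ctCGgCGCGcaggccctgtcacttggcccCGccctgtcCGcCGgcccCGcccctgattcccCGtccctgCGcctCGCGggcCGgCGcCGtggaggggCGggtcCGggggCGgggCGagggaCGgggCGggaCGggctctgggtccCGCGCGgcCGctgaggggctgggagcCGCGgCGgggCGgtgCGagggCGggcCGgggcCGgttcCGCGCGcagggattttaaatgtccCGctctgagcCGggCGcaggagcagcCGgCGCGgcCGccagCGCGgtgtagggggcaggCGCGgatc
FGFR2 first start (chr10:121598395-121598694, minus strand): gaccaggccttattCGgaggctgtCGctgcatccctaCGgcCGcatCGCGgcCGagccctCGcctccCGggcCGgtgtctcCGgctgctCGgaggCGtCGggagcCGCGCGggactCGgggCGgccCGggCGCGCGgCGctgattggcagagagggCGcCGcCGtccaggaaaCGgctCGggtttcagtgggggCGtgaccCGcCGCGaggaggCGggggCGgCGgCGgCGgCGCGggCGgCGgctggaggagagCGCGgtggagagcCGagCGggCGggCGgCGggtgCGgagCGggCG
FGFR2 second start (chr10:121596596-121596895, minus strand): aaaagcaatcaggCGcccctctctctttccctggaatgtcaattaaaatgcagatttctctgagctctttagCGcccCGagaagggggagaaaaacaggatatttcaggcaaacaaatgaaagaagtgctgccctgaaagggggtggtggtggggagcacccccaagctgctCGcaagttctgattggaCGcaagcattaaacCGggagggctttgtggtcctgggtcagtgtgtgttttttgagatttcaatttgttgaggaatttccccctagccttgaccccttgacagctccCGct

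Over 22197 such windows of protein-coding genes the median was 21 CG dinucleotides. The 3107 windows touched by a knockdown peak had a median of 29, and the untouched ones 19. The first start of EGFR held 33 CG and all 300 of its bases lay inside a knockdown peak. The CD44 window held only 18 CG, below the median, and was also covered over its whole length. The CCNE1 window was far richer, with 47 CG, yet none of it lay in a peak: 1 knockdown peak ended 274 bases before the window and another began 98 bases after it. ERBB2, with 24 CG, was likewise uncovered, and the next knockdown peak began 219 bases after the window. The ERBB2 window is shared in part with the neighbouring gene PGAP3, whose span reaches to 39688057. At FGFR2 the CG-rich first start, with 52 CG, was uncovered and lay 1126 bases from the nearest knockdown peak. That peak covered 57 bases of the second FGFR2 window, which holds 7 CG. The second start of EGFR, with 1 CG, lay in a gap of the knockdown list, 29251 bases above one peak and 19202 bases below the next. No window of the 5 genes was touched by a control peak, as was so for 99.3% of all windows.

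Short motifs were searched on both strands of the same windows. The GC box GGGCGG, bound by SP1-type factors and present in 56.3% of all windows, occurred 7 times at CCNE1, 5 times at the first FGFR2 start, 3 times at the first EGFR start, 2 times at CD44, once at the third FGFR2 start and in none of the other 5 windows. The AP-1 site TGACTCA, present in 4.01% of all windows, occurred only in the second EGFR window among the 10, with 2 copies. TATAAA (9.47% of all windows) also occurred 2 times there and in no other window of the 5 genes. CCAAT (34.7%) occurred once at ERBB2, once at each of the first 2 FGFR2 starts and 2 times at the fourth, and in none of the other 6 windows. CACGTG, the E-box (8.34%), occurred in none of the 10. Copies of a motif that share letters were each counted.

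In the knockdown list all 9 genes had at least 1 peak, against 54.9% of all protein-coding genes. In the control list 4 of the 9 did, against 38.6% of all genes. EGFR, ERBB2, ERBB3 and MYC had peaks in both lists (27.4% of all genes), and FGFR2, VEGFA, CCND1, CCNE1 and CD44 had peaks in the knockdown list alone (27.5%). None had peaks in the control list alone (11.2%). The 9 genes held 41 knockdown peaks over 33181 bases and 6 control peaks over 1763 bases. Only 1 knockdown peak and 1 control peak overlapped each other, at the start of EGFR. That is 2.44% of the knockdown peaks (95% interval 0.0617 to 12.9, Clopper-Pearson, counting error only), against 11.7% over the whole list. It is 16.7% of the control peaks (0.421 to 64.1), against 9.06%. The intervals treat peaks as independent, which neighbouring knockdown peaks in the runs described below need not be. A gene with any overlapping pair made up 1 of 9 here and 11.5% of all genes.

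**Figure D1:**
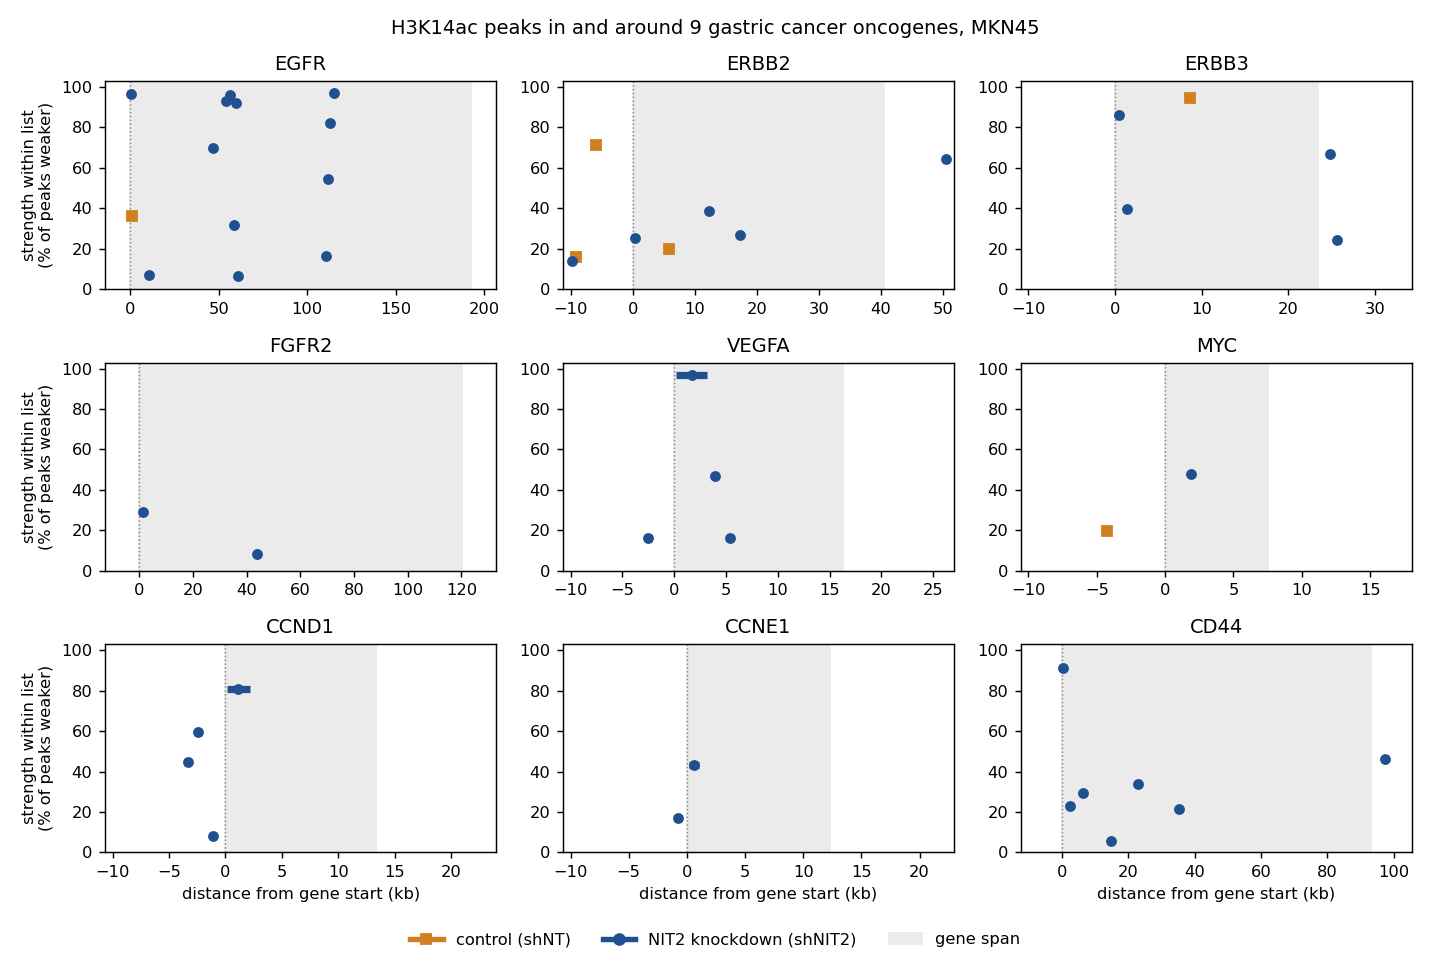
Peaks of both lists along the 9 genes. The horizontal axis is the distance from the gene start in kb (the lower-coordinate end for ERBB3, VEGFA, MYC and CCND1), the vertical axis is the share of peaks of the same list that are weaker by −log10 p, and horizontal bars show the width where it is visible at this scale. The 41 knockdown peaks (circles) are spread over all 9 panels, whereas the 6 control peaks (squares) are found in 4 of them.

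EGFR (chromosome 7, 55019017 to 55211628) had the most peaks, 12 in the knockdown and 1 in the control. The peak at its start ran from 55018620 to 55020745 in the knockdown, 2126 bases wide, with 77 fragments over a background of 6.13 (10.9-fold, −log10 q 52.3). Its lower edge also lay over the higher-coordinate end of the long non-coding RNA gene LOC105375284. The control peak within it, from 55019713 to 55020090, rested on 6 fragments over 0.593 (4.39-fold). Both summits lay inside the gene, 669 bases from the start in the knockdown and 989 bases in the control.

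The other 11 EGFR peaks of the knockdown lay inside the gene, the farthest with its summit 114579 bases from the start. That farthest peak, from 55133213 to 55134779, was the strongest of all 41 by −log10 p, with 92 fragments (95% Poisson interval 74.2 to 113), 9.28-fold and rank 836 of 28187. Most of the inner peaks stood in 2 runs, in which neighbouring peaks were at most 2 kb apart. The first run held 5 peaks over 7489 bases from 55072849 to 55080337, of which 71.3% was covered, and its highest summit had 85 fragments. The second held 4 peaks over 5689 bases from 55129091 to 55134779, of which 66.6% was covered. The second RefSeq start of EGFR lies between these runs, and no run touches it. Of all protein-coding genes, 7.58% had a run of 3 or more knockdown peaks, a gap and a number chosen after these values were seen. In the control list none of the 9 genes had such a run, and 0.868% of all genes did. The gene is long, so it was also set beside genes of like length: of 2960 genes with a span from 0.5 to 2 times that of EGFR, 3.41% had 12 or more knockdown peaks and the median was 1.

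The local background at the EGFR peaks was also high. Its median over the 12 peaks was 9.29 fragments and its highest value 17.2, against a median of 4.25 over the whole knockdown list, and the control peak had 2.14 times the floor of its list. The part of this background, or of gene copy number, in the number of peaks was not tested.

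ERBB2 (chromosome 17, 39688094 to 39728658), which encodes HER2, the target of trastuzumab, had no peak inside the gene above the median fold of either list (4.78 in the control and 4.21 in the knockdown). The knockdown peak nearest its start lay from 39688363 to 39688679, with 18 fragments (3.30-fold), and began 269 bases inside the gene. Inside the gene followed peaks of 23 fragments (3.37-fold) and 19 fragments (3.28-fold), with summits 12379 and 17316 bases from the start. That start is the outer end of the RefSeq span, and whether these peaks lie at other starts of ERBB2 was not examined. These 3 peaks ranked among the weaker part of the list, with 61.2% to 74.8% of peaks as strong or stronger. The 2 remaining knockdown peaks lay in neighbouring genes. The strongest in the window, with 22 fragments (5.33-fold), lay past the gene in GRB7, its summit 50758 bases from the ERBB2 start. GRB7 is an adaptor gene that is often amplified together with ERBB2. The other, with 17 fragments (2.95-fold), was in PGAP3 upstream.

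The control list had 3 peaks at ERBB2, with 5, 8 and 4 fragments. The first 2 lay in PGAP3, the second of them from 39682012 to 39682247 at 6.32-fold, and the third lay 5936 bases inside ERBB2. None overlapped a knockdown peak. The nearest pair, both in PGAP3, was 334 bases apart.

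ERBB3 (chromosome 12, 56080108 to 56103505), the family member with little kinase activity of its own, differed in where the lists put their peak. The knockdown list had a peak from 56080256 to 56080818, with 46 fragments over 6.38 (6.37-fold, −log10 q 21.0), whose summit lay 427 bases from the start. A weaker one with 25 fragments (3.26-fold) followed at 1574 bases. Both other knockdown peaks, with 33 and 21 fragments, lay past the gene in PA2G4, which encodes an ERBB3-binding protein.

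The control list had no peak at the start of ERBB3. Its single peak lay 8454 bases inside the gene, from 56088518 to 56088871, with 17 fragments over a background of 0.439 (12.5-fold, −log10 q 18.6). It was the strongest control peak of the 9 genes and rank 2188 of the control list. Multiplied by the ratio of the background floors, its pileup would be 152 fragments in the knockdown library, yet the nearest knockdown peak was 6731 bases away. Of the 70 control peaks near protein-coding genes (within span or flanks) that ranked as high or higher, 62 overlapped a knockdown peak, and this one was among the 8 that did not.

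FGFR2 (chromosome 10, 121478330 to 121598458, minus strand) had the weakest knockdown peaks of the 9 genes when each gene is taken by its strongest peak. Its peak near the start, from 121596839 to 121597268, rested on 13 fragments over 2.48 (4.02-fold, −log10 q 3.92), with the summit 1381 bases inside the gene. The second peak, 44004 bases inside, had 11 fragments (3.25-fold, −log10 q 2.27). The background at the first of them was the floor of the list. No control peak was listed, and of 4290 genes of similar span 59.0% had one.

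VEGFA (chromosome 6, 43770211 to 43786487) carried the widest of the 41 peaks and no control peak. That peak ran from 43770374 to 43773393, 3020 bases, with 73 fragments over 5.45 (11.5-fold, −log10 q 51.4), the highest fold of the 41. Its edge lay 163 bases inside the gene and its summit 2091 bases. Peaks of 21 fragments (3.98-fold) and 17 fragments (3.03-fold) followed inside the gene, and the 3 together made a run of 5434 bases, of which 4074 were covered. A further peak with 15 fragments (3.21-fold) lay upstream, its summit 2758 bases before the start. In all, peaks covered 13.4% of the VEGFA window, the highest share of the 9.

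MYC (chromosome 8, 127735434 to 127742951) had 1 peak in each list, at different places. The knockdown peak, from 127737109 to 127737478, had 23 fragments over 5.28 (3.82-fold, −log10 q 6.001) and its summit 1808 bases inside the gene. The control peak, from 127731063 to 127731329, had 4 fragments (3.78-fold), 4292 bases before the start and within the non-coding gene CASC11. They were 5780 bases apart. No peak of either list lay within 1 kb of the outer end of the MYC span, which was taken as its start. Whether the knockdown peak lies at another start of MYC was not examined. Having 1 knockdown peak is close to what genes of similar span had: 49.2% of 5182 had at least 1.

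The cyclin genes had knockdown peaks on both sides of their starts and none in the control list. At CCND1 (chromosome 11, 69641156 to 69654474) 4 peaks formed a run of 5774 bases, from 3629 bases before the start to 2144 bases after it. The strongest ran from 69641297 to 69643300 with 30 fragments over 3.32 (7.18-fold), and the 3 upstream had 21, 27 and 16 fragments (3.82-, 4.15- and 2.79-fold). Of 6409 genes of similar span, 6.51% had 4 or more knockdown peaks. At CCNE1 (chromosome 19, 29811991 to 29824312) the 2 peaks flanked the window printed above. The upstream one had 20 fragments over 6.38 (2.85-fold) and the inner one, from 29812139 to 29812999, 16 fragments over 2.86 (4.41-fold). The inner peak thus had the lower pileup and the higher fold, since the backgrounds differed.

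CD44 (chromosome 11, 35139171 to 35232402) had 7 knockdown peaks, 1 of them strong, and no control peak. The strong one covered the start from 35138631 to 35140357, with 44 fragments over 3.66 (9.66-fold, −log10 q 28.8). The other 6 had 12 to 25 fragments and 2.99- to 3.92-fold, and 5 of them lay inside the gene within 35328 bases of the start. The last lay past the gene end, with 25 fragments. No peak was listed in the rest of the gene, where the alternatively spliced variant exons of CD44 are known to lie beyond its first exons. Of 5100 genes of similar span, 5.80% had 7 or more knockdown peaks.

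**Figure D2:**
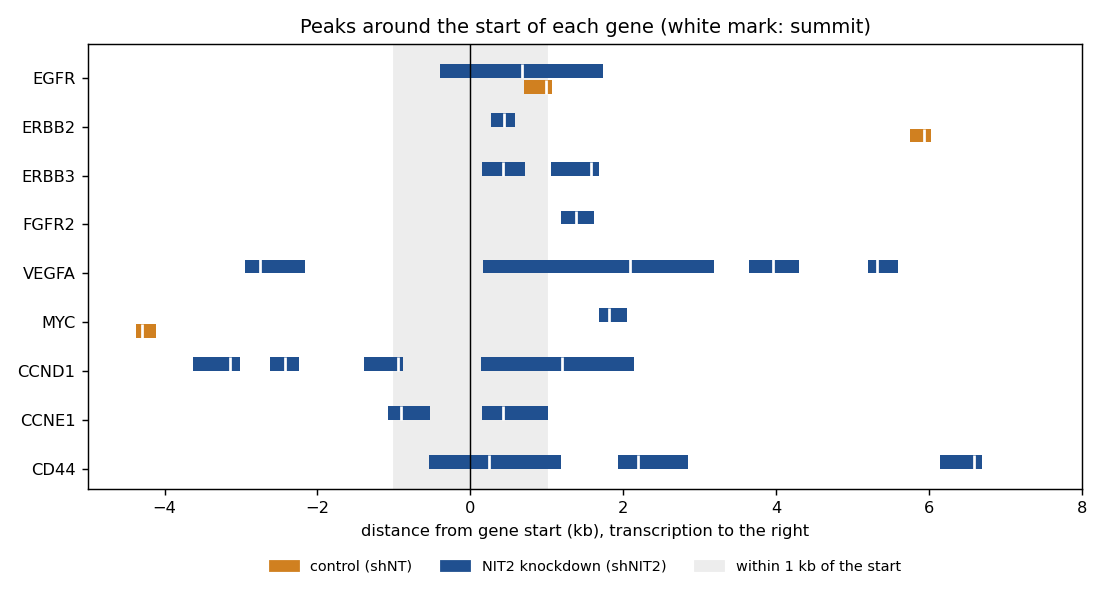
Peaks of both lists from 5 kb before to 8 kb after each gene start, with transcription to the right. Bars span the peaks, white marks are summits and the grey band is within 1 kb of the start. The knockdown peaks at EGFR and CD44 run across the start, while those of the other genes begin or end to its sides.

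Aligned on the outer starts of their RefSeq spans, the genes fell into 3 layouts in the knockdown list. Starts farther inside a gene were not used for these layouts and counts. The outer start of ERBB2 lies beside PGAP3, whose span reaches to 39688057. At EGFR and CD44 a single peak ran across the start. At ERBB2, ERBB3 and VEGFA the peak began 269, 148 and 163 bases inside the gene, and at CCND1 and CCNE1 one peak began 141 and 148 bases inside and another ended 885 and 525 bases before. FGFR2 and MYC had their nearest peak 1190 and 1675 bases inside. Within 1 kb of the start, 7 of the 9 genes had a knockdown peak and 1 had a control peak. Over the 15843 genes of known strand these shares were 36.7% and 5.5%. EGFR was the gene with a start peak in both lists, as were 4.65% of the genes of known strand. Its control peak was no longer counted with a start window of 500 bases, or at −log10 q of at least 5, and the control count was then 0. For ERBB3, VEGFA, MYC and CCND1 the strand is not in the reference tables and the lower-coordinate end was taken, which is the start of these genes as generally known. At all 7 genes the summit of the strongest peak near the start lay inside the gene, 241 to 2091 bases from the start. This was the usual layout of the list: of 5807 genes with a knockdown peak at the start, 74.9% had the summit inside, with a median of 316 bases.

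**Figure D3:**
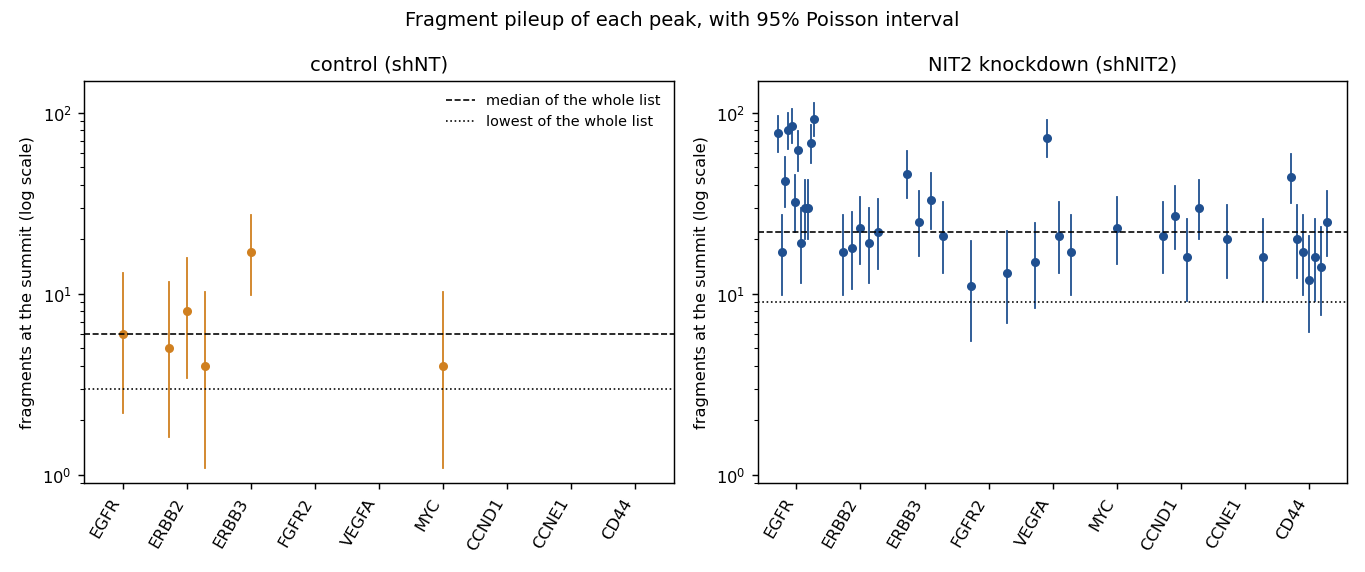
Fragments at the summit of each peak, on a log axis, with the 95% Poisson interval (counting error only), for the control list on the left and the knockdown list on the right. Dashed and dotted lines are the median and the lowest pileup of the whole list. EGFR holds 6 of the 7 highest knockdown points, and FGFR2 lies between the lowest pileup of the list, 9 fragments, and its median of 22.

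By the pileup of their strongest knockdown peak (by −log10 p), the genes ordered as EGFR (92 fragments), VEGFA (73), ERBB3 (46), CD44 (44), CCND1 (30), MYC (23), ERBB2 (22, in GRB7), CCNE1 (16) and FGFR2 (13). Each of the 8 neighbours in this order had overlapping Poisson intervals, so no neighbouring pair was set apart by counting error. The ends of the order did not overlap: 74.2 to 113 for EGFR and 6.92 to 22.2 for FGFR2. Pileup takes no account of local background, which was 9.02 at this EGFR peak and 2.48 at the FGFR2 one. By the fold of the same peaks, VEGFA (11.5) and CD44 (9.66) stood above EGFR (9.28), and MYC (3.82) stood below FGFR2 (4.02). The EGFR peak was also the strongest of 12, and that of FGFR2 the stronger of 2. The median pileup of the 41 peaks was 22, the same as that of the whole list, and their median fold was 3.58 against 4.21 in the list. The share of the 9 genes with a peak was thus above that of all genes, while the medians of their peaks were level with or below those of the list.

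Depth limits what the control list can show at these genes. Divided by the ratio of background floors, the 41 knockdown pileups would be 1.23 to 10.3 fragments in the control library, and the lowest pileup listed there was 3. Only 16 of the 41 reach that value. They were 10 peaks of EGFR, 2 each of ERBB3 and CCND1, and 1 each of VEGFA and CD44. At FGFR2, CCNE1, ERBB2 and MYC the absence of a control peak at a knockdown peak's place was therefore not distinguishable from a lack of depth. The limit of 3 fragments takes no account of counting error in the control, or of local background, which was high at EGFR. At CCND1 the values that reach it were only 3.36 and 3.02 fragments. A peak that reaches the limit could thus still be too weak for the control to list, at any of the 5 genes. Of the peaks that reach 6 fragments, the control median, 6 were in EGFR and 1 in VEGFA. For VEGFA the value was 8.17 fragments, and the nearest control peak was 65625 bases away. The largest of the EGFR values, 10.3 fragments, had its nearest control peak 113123 bases away.

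Other genes of the same pathways, 78 in a list fixed by role, were marked more often than all protein-coding genes in both lists. The shares of all genes were 54.9% in the knockdown and 38.6% in the control. Gene length was not matched in this comparison. A knockdown peak in span or flanks was found for 66 (84.6%) and a control peak for 48 (61.5%). There were 43 with both, the knockdown alone 23, the control alone 5 and neither 7. Within 1 kb of the start, of 62 genes with known strand, 42 had a knockdown peak (67.7%, against 36.7% of all) and 7 a control peak (11.3%, against 5.5% of all). The median gene had 2 knockdown peaks, against 1 over all protein-coding genes.

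**Figure D4:**
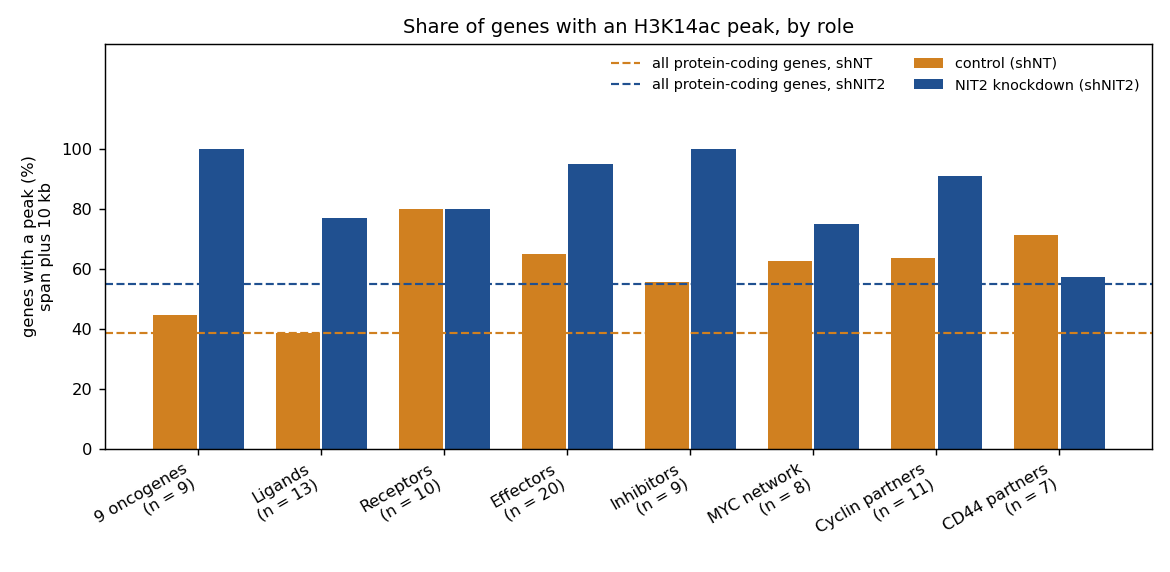
Share of genes with an H3K14ac peak in the gene span plus 10 kb, for the 9 oncogenes and for the other pathway genes by role. Bars are the 2 lists, dashed lines the shares of all protein-coding genes (38.6% in the control and 54.9% in the knockdown). All 9 oncogenes and all 9 inhibitors had a knockdown peak, while the CD44 partners were the 1 role with fewer genes in the knockdown list than in the control list.

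Of 13 ligand genes, 10 had a knockdown peak and 5 a control peak. TGFA, which binds EGFR, had 41 fragments at its strongest peak (11.8-fold), and EREG, another EGFR ligand, had 40 (11.2-fold). The strongest peak in the VEGFB window, 22.7-fold, lay outside that gene in PPP1R14B. FGF7, FGF10 and VEGFC had no peak in either list.

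Of 10 receptor genes, 8 had peaks in each list. MET, the hepatocyte growth factor receptor, held the peak of highest rank in the knockdown list, with 443 fragments (12.1-fold), and 16 knockdown and 12 control peaks in all, 4 and 6 of them shared. The part of local background, or of gene copy number, in these MET values was not tested. IGF1R had 21 knockdown peaks, led by 80 fragments (10.2-fold), and MST1R had 3, led by 77 fragments (10.6-fold). MET, MST1R and FGFR4 had a peak at the start in both lists. FLT1 had a control peak only, and KDR none.

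Effectors of the RAS and PI3K pathways had a knockdown peak in 19 of 20 cases and a control peak in 13. SOS1, the exchange factor for RAS, was the strongest with 74 fragments (14.6-fold), and AKT1, a kinase of the PI3K pathway, had 42 fragments (8.91-fold). The adaptor SHC1 had a peak at the start in both lists. BRAF was the effector with control peaks alone, 6 of them, the strongest with 5 fragments.

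All 9 inhibitors of these pathways had a knockdown peak, and 5 had a control peak. ERRFI1, which binds and inhibits EGFR family kinases, and SPRY4, an inhibitor of RAS signalling, each reached 45 fragments (7.54- and 6.23-fold), both outside the gene within its flanks. DUSP6, a phosphatase of ERK, reached 34 (7.65-fold), also in a flank, and had a peak at the start in both lists.

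Of the 8 genes of the MYC network, 6 had a knockdown peak and 5 a control peak. MNT, a repressor that pairs with MAX, had 72 fragments (9.11-fold) and MLX 31 (5.72-fold). MXD1, another MAX partner, had a peak at the start in both lists, but the strongest in its window, 49 fragments (11.8-fold), lay in ASPRV1.

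Of the 11 cyclin partners, 10 had a knockdown peak and 7 a control peak. CDKN1A, the inhibitor p21, had 88 fragments at its strongest peak (13.1-fold), CDK6, a kinase partner of cyclin D1, had 17 peaks led by 71 fragments (10.4-fold), and CDKN1B, the inhibitor p27, had 62 in its flank (9.96-fold). CDKN2A had no peak in either list.

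CD44 partners, which splice it, make its ligand or link it to actin, had a knockdown peak in 4 of 7 cases and a control peak in 5. The epithelial splicing factors ESRP2 and ESRP1 had 57 fragments (16.6-fold) and 50 in the flank (9.33-fold). The linker gene EZR had 33 (9.77-fold) and was the partner with a peak at the start in both lists. Its relatives MSN and RDX had a control peak each and no knockdown peak.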

How the data were processed

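H3K14ac ChIP-seq of MKN45 cells was read as 1 peak list per condition. Single-end reads of 75 bases came from libraries amplified for 15 cycles, per the labels' protocols. MACS2 2.1.1, Bowtie2 2.2.6, ChIPseeker, Trimmomatic 0.35, cutadapt 1.9.1, FastQC and the build hg38 are named, without roles, in the notes on processing that the submitters gave. Use of the input as control, handling of duplicates and total reads are not given in those sources. The deposited lists give per peak a score, a fold ratio of summit pileup to background (pseudocount 1 in each), a −log10 p-value and a −log10 q-value. These are the authors' values.

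Genes came from RefSeq (GRCh38.p14), which has the chromosomes of hg38. Strand came from its promoter windows, for 15843 of 20037 genes, and exons were not used. A peak counted when it overlapped a window by at least 1 bp. Coordinates are 1-based. Pileups and backgrounds were solved with the Poisson upper tail (scipy 1.17.1), checked on simulated peaks, and gave a whole-number pileup within 0.1% of the deposited −log10 p for 99.96% of peaks in both lists, including all 47 here. Poisson intervals are exact. No test was run, for want of replicates. All 9 genes are described, and of the 78 pathway genes the 3 strongest per role in the knockdown list and those with a start peak in both lists, except 1 that is not reported here. Genes with no peak or with peaks in 1 list, and PGAP3, GRB7, PA2G4, PPP1R14B, ASPRV1 and EIF4A1, were named after their values were seen. The members and lists were chosen with earlier results of these data known.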

Additional observations from a re-analysis of the deposited data

How the results depend on the processing

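The alternatives were stricter q thresholds, equal numbers of the strongest peaks, other flanks, other start windows and other overlap rules. A count was taken as moved when it changed by over 1.5 times, and of 54 counts 32 stayed and 22 moved, 13 of them in the control list. With −log10 q held to 5 or more, the control list kept 2 genes with 2 peaks, 0 at a start and 12 pathway genes, and the knockdown list kept 20 peaks. At 10, the control list kept 1 gene with 1 peak, 0 at a start and 4 pathway genes, and the knockdown list 5 genes, 11 peaks and 37 pathway genes. With equal numbers of peaks the control list held 3 peaks at the genes, and without a flank also 3. With a start window of 500 bases it marked 0 starts. With a window of 3000 bases the knockdown list marked the starts of all 9 genes, and the share of all genes at that window was not computed. The overlap at EGFR counts as shared in 0 cases at 50% reciprocal overlap and at −log10 q of at least 5 in both lists, and in 0 cases when the knockdown summit must lie in the control peak. Alternatives added after seeing the data left out peaks in neighbouring protein-coding genes, which kept 37 knockdown and 4 control peaks, and asked that a scaled knockdown pileup reach 3 fragments, which left 5 genes and 16 peaks. All 9 genes had a knockdown peak under every flank tried. No paired analysis was possible because each condition had 1 library. Depth is known only through the pileups.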
